A study of Mus musculus with 2 samples.

Results

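Fatty acids reach a cell through a short chain of proteins, and 10 genes of that chain were examined in progestin/DMBA-induced mammary tumors: Lpl, Gpihbp1, Cd36, Slc27a1, Slc27a2, Slc27a4, Acsl1, Fabp3, Fabp4 and Fabp5. They were taken by name, and every probe set annotated to exactly 1 of them was read. A probe set is a group of short oligonucleotides that together report part of a transcript. A total of 15 probe sets named 8 of the 10 genes, of 20380 singly named probe sets and 12393 genes on the array. Gpihbp1 and Acsl1 were not analysed here. Tumors came from female wild-type FVB mice given 15 mg medroxyprogesterone acetate at 5 weeks of age and then 4 doses of 1 mg DMBA, a polycyclic carcinogen. The mice were then fed either chow with 0.1% GW9662, an irreversible inhibitor of the nuclear receptor PPARγ, or standard chow as the control diet. Equal amounts of tumor RNA from 5 mice were pooled for each diet and hybridized to 1 Affymetrix array, so there were no replicate arrays. The labels call the tissue mammary tumor and its extract one of mammary gland, which can hold fat and muscle. Differences are therefore given by size, with no p-value, and diet, mouse, tumor and array cannot be told apart as their source.

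In tissues that burn or store fat, lipoprotein lipase (Lpl) releases fatty acids from circulating triglyceride at the capillary wall, where Gpihbp1 holds the enzyme. Cd36 takes up the fatty acids at the cell surface. The Slc27a transporters and the synthetase Acsl1 trap them as acyl-CoA, and small cytosolic binding proteins (Fabp) carry them inside the cell. Several members exist in tissue forms. Fabp4 is the form of fat cells, Fabp3 that of heart and skeletal muscle, and Fabp5 that of the epidermis and other epithelia. Slc27a1 is the transporter of fat and muscle, Slc27a4 that of gut and skin epithelium, and Slc27a2 that of liver and kidney. PPARγ is the master regulator of fat cell differentiation, and Lpl, Cd36 and Fabp4 are textbook targets of it.

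Lpl, Cd36 and the fat and muscle binding proteins had far lower signals in the tumor pool of GW9662-treated animals. Of the epithelial forms, Fabp5 was close to level and Slc27a4 was 1.43-fold lower at its single probe set. Cd36, Fabp3, Lpl and Fabp4 each passed a 3-fold difference at their brightest probe set and were lower with GW9662, with log2 ratios of GW9662 over control of -4.57, -4.39, -2.97 and -2.14. Slc27a1 followed at -1.48, then Slc27a4 at -0.51 and Fabp5 at -0.10. Slc27a2 had a signal below 100 on both arrays, too low for a fold. A gene was counted when the brighter of its signals reached 300 and the ratio reached 3-fold, limits taken from the methods of the study. By that rule 4 of the 7 members that reached a signal of 300 were lower and 0 were higher. Over all 6053 genes that reached it, 2.68% were lower and 0.215% higher. At 2.5-fold and at 2-fold 5 were lower, beside 3.32% and 4.68% of those genes. Of the 8 genes, 7 had a mean signal of at least 100, and Fabp3 reached that level only through the control array, so its ratio is only a bound. The median log2 ratio of these 7 was -2.14, beside 0.03 over the 8009 genes of the same minimum. Of the 15 probe sets, 13 reached a signal of 300, and 9 of these passed as lower and 0 as higher. Over all probe sets that reached it, the shares were 2.56% and 0.378%. At 2.5-fold and at 2-fold 10 were lower, beside 3.18% and 4.8%. The log2 ratios of probe sets of the same gene differed with an SD of 0.36 over 2639 genes, a spread that holds no variation between mice.

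**Figure D1:**
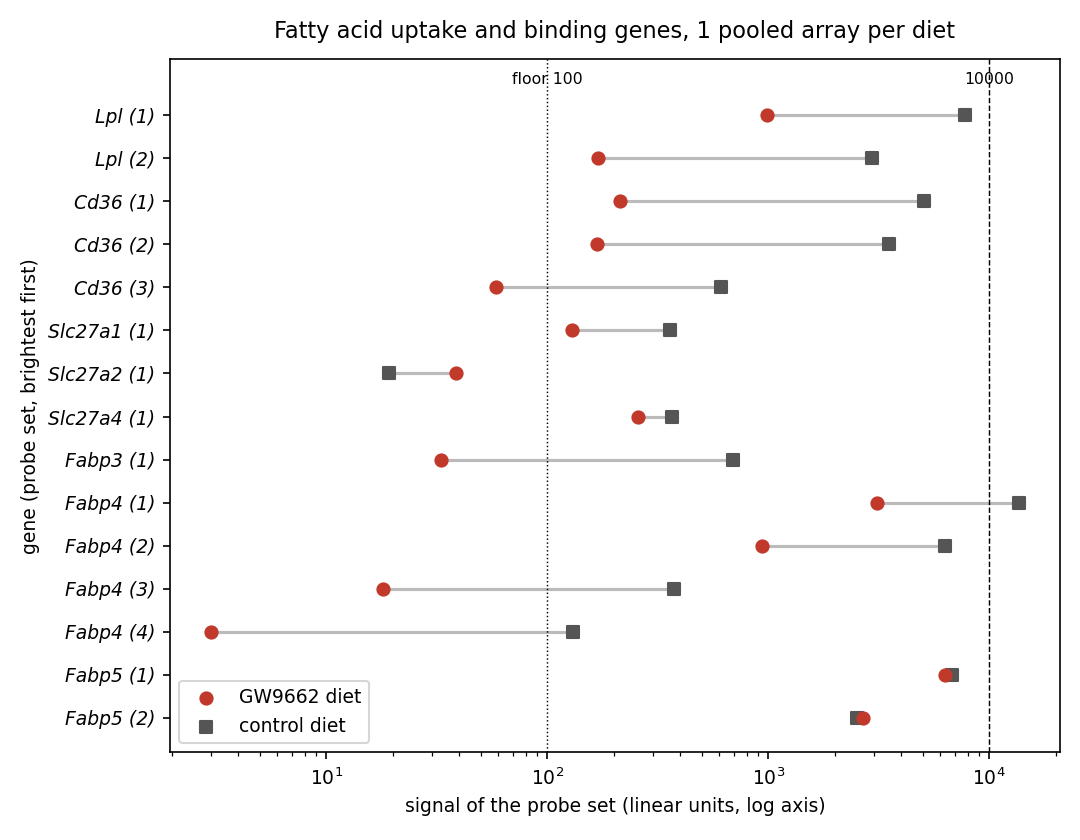
Signal of each of the 15 probe sets on a log axis, with the GW9662 diet as red circles and the control diet as gray squares. Probe sets of a gene are numbered from the brightest, the dotted line marks the floor of 100 below which only a bound on a fold is given, and the dashed line marks a signal of 10000. The lines of Cd36, Lpl, Fabp3 and Fabp4 are long and those of Fabp5 are short.

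Cd36, the scavenger receptor that takes up long-chain fatty acids in fat, muscle, capillary endothelium and macrophages, was lower at every probe set. Its brightest probe set had a signal of 212 on the GW9662 array and 5052.5 on the control array, 23.8-fold lower. The second had 168 and 3503, 20.8-fold lower, and the third had 58.9 and 611, at least 6.11-fold lower. The GW9662 signals of the 3 probe sets were at 4.20%, 4.81% and 9.63% of the control signals. The 3 genes outside the family whose log2 ratio was closest to that of Cd36, among genes that reached 100 on each array, were the adipokine gene Adipoq (-4.53), the lipid droplet coat gene Plin4 (-4.48) and the lipogenic regulator Thrsp (-4.38). With 2 arrays, this likeness rests on a single ratio per gene.

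Lpl, the enzyme that frees fatty acids from lipoproteins, is made by fat and muscle cells and also by the lactating mammary gland. Its brighter probe set had signals of 989 on the GW9662 array and 7740.1 on the control array, 7.83-fold lower. Its dimmer probe set had 170 and 2957, 17.4-fold lower. The direction was shared, but the log2 ratios of -2.97 and -4.12 lay further apart than the SD between probe sets of a gene. The proteins that act on Lpl or handle its products had smaller ratios. Angptl4, a secreted inhibitor of the enzyme, had 951 on the GW9662 array and 1940.1 on the control array, 2.04-fold lower. Lmf1, which helps the enzyme fold, had 159 and 256. The lipoprotein receptor Vldlr had 1024 and 1246, and Apoe, a ligand of lipoprotein receptors, had 6719 and 7981. Of the 11 genes of Lpl handling that reached a signal of 300, 0 were 3-fold lower or higher, beside 2.68% and 0.215% over all genes. The median log2 ratio over the 12 with a mean signal of at least 100 was -0.32. Of these 12, 8 were lower and 4 were higher, among them Apoc1 with 5031 on the GW9662 array and 4298 on the control array.

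Among the cytosolic binding proteins, Fabp3 and Fabp4 were lower with GW9662 and Fabp5 was close to level. Fabp3 had a signal of 33.2 on the GW9662 array and 696 on the control array, at least 6.96-fold lower, at its single probe set. The gene is also known from lactating mammary epithelium. Fabp4 was lower at all 4 of its probe sets. The brightest had 3097 on the GW9662 array and 13670 on the control array, 4.41-fold lower, and the second had 934 and 6320.1, 6.77-fold lower. The third had 18.0 and 375, at least 3.75-fold lower, and the dimmest had 3.0 and 131, which allows a bound of 1.31-fold. As a measure of background, 33 probe sets of olfactory receptors, genes of the nasal epithelium, gave at most 25.8 on either array. The 2 dimmer Fabp4 probe sets were thus within the background on the GW9662 array, while the brightest stayed well above it there. Fabp5 was close to level at both probe sets. The brighter had 6306 on the GW9662 array and 6768 on the control array, and the dimmer had 2671 and 2510.2. These ratios, -0.10 and 0.09, lie on either side of 0 and differ by less than the SD between probe sets.

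Set against Fabp5, the log2 ratio of Fabp4 was lower by a difference of -2.04 and that of Fabp3 by a difference of -4.29. The SD of such a difference, from probe sets alone, is 0.51. Read at the brightest Fabp4 probe set below 10000, the difference between Fabp4 and Fabp5 was -2.66. With signals below 100 set to 100, that between Fabp3 and Fabp5 was -2.70, because the GW9662 signal of Fabp3 is then only a bound. Fabp3 and Fabp4 were not ranked, since the ratio of Fabp3 is only a bound. Levels of different genes were not ranked, since probe sets differ in how brightly they report a transcript.

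Other family members were at the background. The liver form Fabp1 had signals of 5.7 and 6.1 on the GW9662 and control arrays, the brain form Fabp7 had 5.5 and 9.9, and the intestinal form Fabp2 had 9.0 and 1.8. Fabp9, the testis form, had 10.8 and 13.9. In the RefSeq annotation (GRCm38.p6) Fabp9 is the gene next to Fabp4, and Fabp5 lies nearby in the same cluster. Of the binding proteins other than the Fabp genes, Dbi, which binds acyl-CoA, had 7514 on the GW9662 array and 10920.2 on the control array. Scp2, a lipid carrier of peroxisomes, had 2520.2 and 4707. Rbp7, a retinol carrier of fat and its vessels, had 281 and 594, 2.12-fold lower. Crabp1, a binding protein of retinoic acid, was the only one of the 6 binding proteins reaching 300 that was 3-fold higher, with 3208 and 776. None of the 6 was 3-fold lower. Over all genes that reached 300, 2.68% were 3-fold lower and 0.215% higher.

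The transporters of the Slc27a family, which couple uptake to acyl-CoA formation, were read at 1 probe set each. Slc27a1 had signals of 129 on the GW9662 array and 359 on the control array, 2.78-fold lower, which is past 2.5-fold but short of 3-fold. Slc27a4 had 258 and 368, 1.43-fold lower. The difference of their log2 ratios was -0.97, where the SD of such a difference, from probe sets alone, is 0.51. Slc27a2 had 38.6 and 19.2. Of the relatives, Slc27a3 had 142 and 155, and the liver transporter Slc27a5 had 13.0 and 22.5, within the background. Other acyl-CoA synthetases of long-chain fatty acids were near level. Acsl5, which is abundant in intestine, had 1382 on the GW9662 array and 1441 on the control array, and Acsl4, which prefers arachidonic acid, had 1006 and 944. Acss2, which activates acetate for lipid synthesis, differed from them with 148 and 802, 5.44-fold lower. It was the 1 gene 3-fold lower among the 4 of this group that reached 300, beside 2.68% over all genes.

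**Figure D2:**
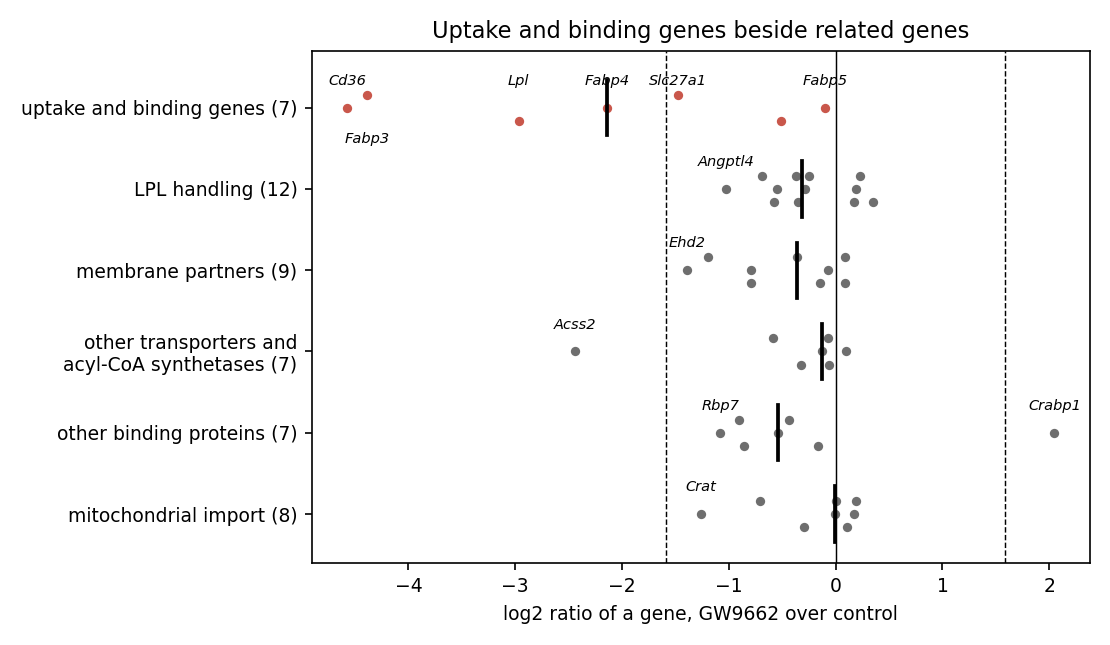
Log2 ratio of GW9662 over control for each gene with a mean signal of at least 100, with the 7 uptake and binding genes in red and other genes of fatty acid handling in gray. Thick bars are medians, dashed lines mark 3-fold differences, numbers in parentheses count genes, and points are spread vertically for legibility. A ratio with a signal below 100, such as that of Fabp3, is drawn as computed and is only a bound. The red points run between -4.57 and -0.10, and the medians of the other groups lie between -0.54 and 0.00.

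Promoter sequence was at hand for 5 of the 8 genes. Those of Cd36 and Fabp3, both past 3-fold, and of Slc27a4, which was short of 3-fold, are shown so that their base composition and motifs can be compared. Each is the stretch of 250 bases before an annotated transcription start, from RefSeq on GRCm38.p6, written 5′ to 3′ on the strand of the gene. Capitals mark AGGTCA, the hexamer bound by nuclear receptors, or GGGCGG, the GC box, on either strand, where TGACCT and CCGCCC are their reverse complements.
Cd36, chr5:17835897-17836146, minus strand: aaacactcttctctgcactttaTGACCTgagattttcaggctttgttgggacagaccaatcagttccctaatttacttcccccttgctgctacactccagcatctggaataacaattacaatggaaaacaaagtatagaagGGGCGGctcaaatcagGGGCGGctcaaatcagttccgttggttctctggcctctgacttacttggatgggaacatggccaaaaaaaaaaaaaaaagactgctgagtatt
Fabp3, chr4:130308488-130308737, plus strand: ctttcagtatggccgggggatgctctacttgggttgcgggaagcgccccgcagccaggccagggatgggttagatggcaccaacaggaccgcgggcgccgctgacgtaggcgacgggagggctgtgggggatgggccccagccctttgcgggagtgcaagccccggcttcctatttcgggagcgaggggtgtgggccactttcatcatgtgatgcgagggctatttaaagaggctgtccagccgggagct
Slc27a4, chr2:29802384-29802633, plus strand: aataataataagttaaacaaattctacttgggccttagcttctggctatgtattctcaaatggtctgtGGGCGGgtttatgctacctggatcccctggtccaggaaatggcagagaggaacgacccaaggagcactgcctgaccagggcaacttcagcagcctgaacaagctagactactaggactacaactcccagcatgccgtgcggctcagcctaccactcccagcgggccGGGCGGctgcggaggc

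Within these windows Cd36 had 1 match to AGGTCA, on the opposite strand and beginning 228 bases before the start, and 2 matches to GGGCGG, at 109 and 93 bases. Fabp3 had neither motif. Slc27a4 had 2 matches to GGGCGG, at 182 and 16 bases, and 0 to AGGTCA. Slc27a2, whose signal was too low to read, also held 1 AGGTCA match, and it and Slc27a1 held GGGCGG in 1 or more windows. The paired form, 2 copies of AGGTCA in direct repeat with 1 base between them, to which PPAR and RXR bind together and which contains the hexamer, was in none of the 7 windows of the 5 genes. TATAAA was in none of the 7 either. Over all 32851 windows of the same length, AGGTCA was found in 14.0%, its paired form in 0.0335%, GGGCGG in 32.7% and TATAAA in 12.4%. The paired form is so rare among all windows that its absence from 7 says little about these genes. The study marks Cd36, Fabp3 and Slc27a1 as containing PPAR response elements. A match is only a match of letters, and sites further upstream lie outside these windows.

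Probe sets of a gene gave folds of different size. Where both signals were at least 100, the log2 ratios were -2.14 at the brightest and -2.76 at the second Fabp4 probe set, -2.97 and -4.12 for Lpl, and -4.57 and -4.38 for Cd36. The other probe sets of Fabp4 and Cd36 were below 100 on the GW9662 array and give only bounds. The brightest Fabp4 probe set was the only one of the 15 with a signal of 10000 or more, and only on the control array. Its control signal of 13670 stood near the top of the range, where the maximum was 14841 with GW9662 and 14438 with the control diet. No member probe set reached 10000 on the GW9662 array. The 4.41-fold difference at the brightest Fabp4 probe set was smaller than the 6.77-fold at the next one.

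**Figure D3:**
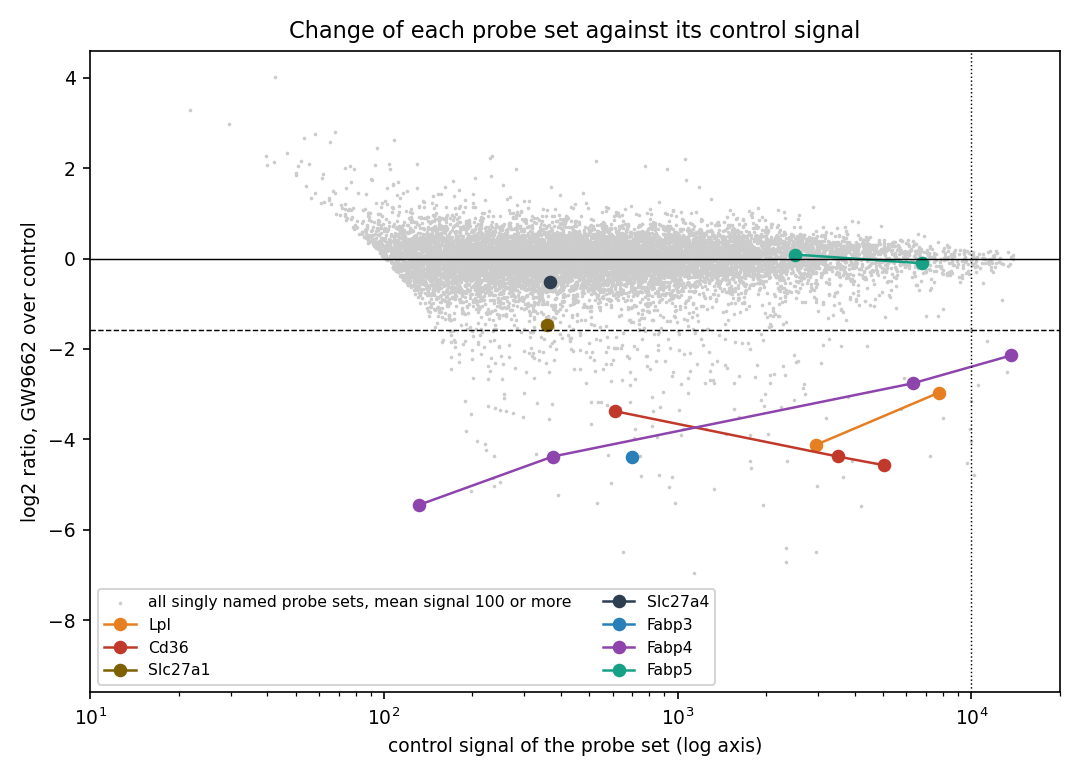
Log2 ratio of GW9662 over control on the y axis against the control signal on a log x axis. Gray points are all singly named probe sets with a mean signal of at least 100, and colored points are those of 7 members, joined within a gene, including a dimmer Fabp4 probe set. The dashed line marks 3-fold lower and the dotted line a signal of 10000. Ratios are drawn as computed, and those of Fabp3, the dimmest Cd36 and the 2 dimmer Fabp4 probe sets are only bounds, since their GW9662 signals were below 100.

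Other genes with a probe set near the top of the range were read the same way. On the control array 124 probe sets had a signal of 10000 or more, and 21 genes had such a probe set and another with a control signal between 300 and 10000. In 4 of these 21 the second probe set passed a 2-fold difference and was lower with GW9662. These were Csn2, Fabp4, Scd1 and Gsn, and in all 4 the brighter probe set had the smaller difference. Csn2, beta-casein, had log2 ratios of -2.79 at its brightest and -3.53 at its next probe set, and Scd1, a fatty acid desaturase, had -1.83 and -2.61. For Fabp4 they were -2.14 and -2.76. The 4 were chosen by the ratio of the second probe set, which favors a larger difference there, and Fabp4 is one of them, so this count is a description only. Chosen instead by the probe set with the highest control signal, 25 genes below 10000 were at least 3-fold lower and had a second probe set of at least 300, and the second had the lower ratio in 13. Saturation was not tested, since the file holds no scanner flags.

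**Figure D4:**
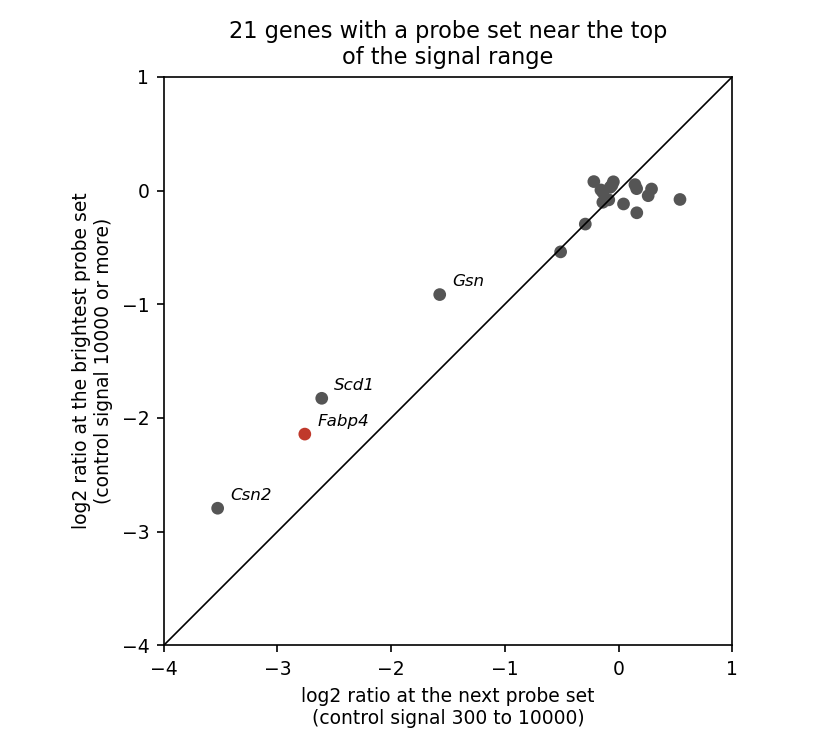
Log2 ratio of GW9662 over control at the brightest probe set, with a control signal of 10000 or more, against that at the next probe set of the same gene, for 21 genes. The line marks equal ratios and Fabp4 is red. The 4 named genes lie above the line, and the other 17 lie between -0.54 and 0.54 on both axes.

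Marker genes of fat, muscle and secretory epithelium were also lower with GW9662. Over all genes that reached a signal of 300, the share that passed as lower was 2.68%. Of the 14 adipocyte markers with a mean signal of at least 100, 13 reached a signal of 300, and all 13 passed as lower. However, 6 of the 14 were below 100 on the GW9662 array and were retained only through the control array. The other 8 had log2 ratios between -4.84 and -2.27. Their summed signal was 4766 on the GW9662 array and 48750.8 on the control array, or 9.78% over all 14. Cd36 and Lpl lay within the range of the 8, as did the second Fabp4 probe set (-2.76), and the brightest Fabp4 probe set (-2.14) was above it by less than the SD between probe sets. Of the brown fat markers, Cox8b had 9.1 and 1136 and Cidea had 45.3 and 710.2, both passing as lower, while Dio2 had 180.4 and 180. Of 16 skeletal muscle markers, 12 reached a signal of 300, and all 12 passed as lower. Among the 16, 9 were below 100 on the GW9662 array, and the other 7 had ratios between -3.90 and -1.91. Their summed signal was 1711 and 14142, or 12.1% over all 16. Of 10 milk protein genes, 8 passed as lower, 3 were below 100 on the GW9662 array, and the other 7 had ratios between -4.03 and -0.31. The summed signal of all 10 was 13709 and 49470.7, or 27.7%. The lists were written from general knowledge, but with earlier results of these arrays known. In a pool of whole tumors, fewer cells of a type and less RNA per cell cannot be told apart. The part of fat, muscle and secretory tissue in the lower signals of Cd36, Lpl, Fabp3, Fabp4 and Slc27a1 was not tested.

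Markers of other cell types that can carry Cd36, Fabp4 or Fabp5 had medians nearer to 0. The 15 measured markers of capillary endothelium, which holds Cd36 and Fabp4, were all lower, with a median log2 ratio of -0.71 and a summed signal of 5390.2 on the GW9662 array and 9399 on the control array. Of the 11 that reached a signal of 300, 2 passed as lower, Rgcc with 232 and 1164 and the tight junction gene Cldn5 with 256 and 774. Over all genes that reached a signal of 300, 2.68% passed as lower. Of the 10 fibroblast markers, 2 passed as lower, with a median of -0.55 and sums of 23673 and 33867. The 11 measured macrophage markers, a cell type that takes up lipid through Cd36, had a median of -0.09 and sums of 20005.8 and 21378, with 0 past 3-fold. The luminal epithelial markers had sums of 50543.9 and 50297 over 11 genes and a median of 0.03. The 8 measured basal and squamous markers had a median of 0.06 and sums of 5420 and 5869. Fabp5 and Slc27a4 lay within the range of both epithelial lists, but also within those of the macrophage, fibroblast and endothelial lists. On the GW9662 array some adipocyte markers stayed well above background, such as Car3 (2330 and 13264) and Adipoq (418 and 9668), and others such as Lep (23.0 and 980) and Cidec (44.2 and 1950) were below 100. Pparg, read at 1 probe set, had 52.0 and 713.

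**Figure D5:**
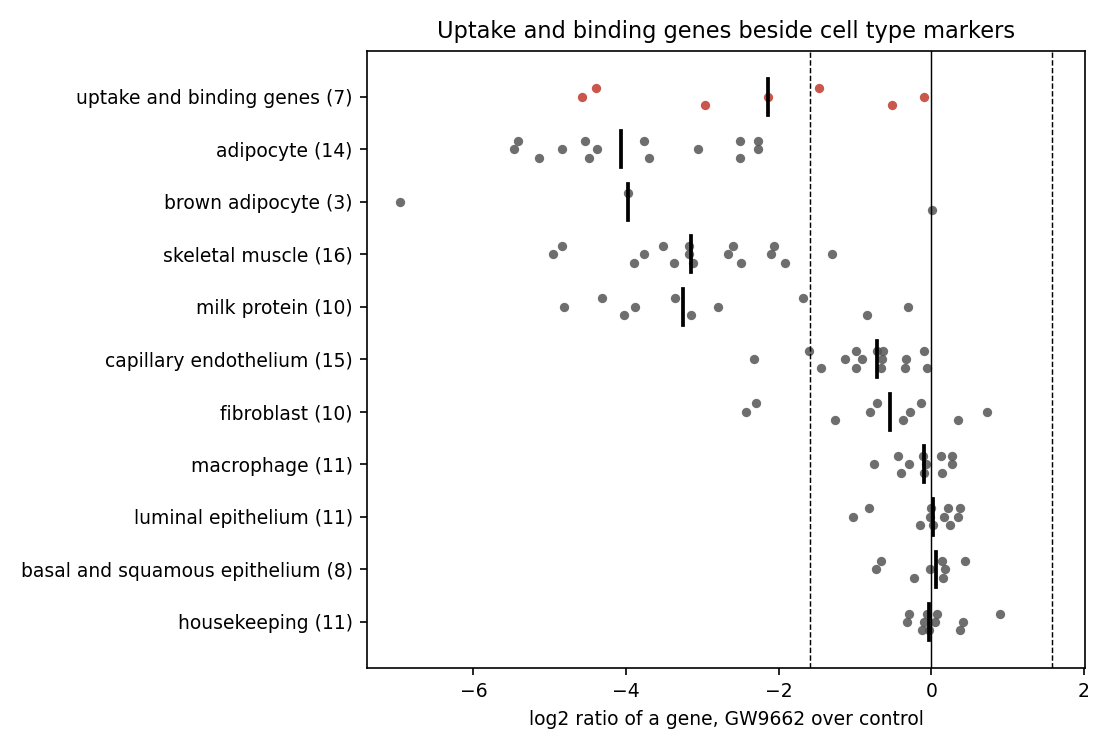
Log2 ratio of GW9662 over control for each gene with a mean signal of at least 100, with the 7 uptake and binding genes in red and markers of each cell type in gray. Thick bars are medians, dashed lines mark 3-fold differences, numbers in parentheses count genes, and points are spread vertically for legibility. A ratio with a signal below 100 is drawn as computed and is only a bound. Cd36, Fabp3, Lpl and Fabp4 lie left of the dashed line with most adipocyte, muscle and milk markers. Fabp5 and Slc27a4 lie within the range of the epithelial, macrophage, fibroblast and endothelial markers.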

How the data were processed

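Tumor RNA pooled from 5 mice per diet was labelled with biotin and hybridized to Affymetrix mouse 430A 2.0 arrays, and the authors generated raw data with GeneChip Operating Software 1.1. The authors deposited a linear signal intensity per probe set. For the summary and scaling of probe pairs, the method is not given in the sources used here. Both arrays had a 2% trimmed mean of 500.2. Signals were used as deposited, with 3 signals of 0 read as 0.1. Of 22690 probe sets, 20380 had 1 gene in the platform annotation and RefSeq (GRCm38.p6). Others had several genes (691), no gene named here (1555) or were array controls (64).

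Of several probe sets, the one brightest on average over both arrays stood for the gene. For a dimmer signal under 100, the fold given is a bound, the brighter signal over 100. Genes named outside the family were drawn from the brightest genes and the largest ratios of each list, but not all of these were named. Pparg and the 3 genes closest to Cd36 were added, and Dio2 was named outside this rule. Genes and lists were chosen with earlier results of these arrays known. Lmf1, Vldlr, Cpt1a, Got2, Slc27a3, Slc27a5, Gsn, Scd1 and the other Fabp genes were named after their values were seen. The counting rule was tested on simulated arrays whose only noise was the spread between probe sets of a gene. That spread holds no variation between mice or tumors, so the test cannot show how often the rule errs here. Alternatives covered the probe set read, centring, quantile normalization, a floor, an offset, the signal minimum and the fold. Tables were handled in pandas 2.3.3 and numpy 2.4.6 under Python 3.11.15, and plots drawn with matplotlib 3.10.9. The number of arrays, 2, limits the precision of every value.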

Additional observations from a re-analysis of the deposited data

How the results depend on the processing

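The 4 members at least 3-fold lower and the 0 higher were counted again under 10 other settings, and the lower count stayed between 3 and 5. It was 3 with a signal minimum of 1000, where Fabp3 dropped out, and 5 at 2-fold or 2.5-fold, where Slc27a1 came in. Lower probe sets numbered 6 to 10, and the share over all probe sets was not counted at the other signal minimums. Over all 6053 genes that reached 300, 162 were lower (2.68%) and 13 higher. With a signal minimum of 100, 248 of 8206 genes were lower (3.02%) and 20 higher. With a minimum of 1000, 74 of 2641 genes were lower (2.80%) and 7 higher. Among the 6053, 201 were lower (3.32%) and 19 higher at 2.5-fold, and 283 (4.68%) and 62 at 2-fold. Read as the median over probe sets, the median log2 ratio of the members was -2.76 in place of -2.14, and the difference between Fabp4 and Fabp5 was -2.75 in place of -2.04. With probe sets below 10000 on the control array these values were -2.76 and -2.66. The difference between Fabp3 and Fabp5 was -2.70 with signals below 100 set to 100 and -3.38 with 32 added to each signal, in place of -4.29, since the GW9662 signal of Fabp3 is low. Centring and quantile normalization moved no value by more than the SD between probe sets. No result changed direction among the settings run, and Fabp5 stayed between -0.13 and -0.01. No paired analysis was possible because each diet had 1 array, and for the same reason no array could be left out.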

Other observations

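The genes listed for import of fatty acids into mitochondria, the step after activation, had no shared direction as a group. The carnitine shuttle gene Cpt1a had signals of 690 on the GW9662 array and 695 on the control array, Slc25a20, the carnitine carrier, had 1549 and 1356, and the acyl-CoA thioesterase Acot1 had 2240.1 and 2075. Crat, the carnitine acetyltransferase, had 150 and 361, 2.40-fold lower, and Cpt2 had 389 and 635. Of 8 genes with a signal of at least 300, 0 were 3-fold lower or higher, beside 2.68% and 0.215% over all genes. The median log2 ratio was 0.00, with 4 genes lower (Crat, Cpt2, Slc22a5 and Cpt1a) and 4 higher (Slc25a20, Acot7, Acot1 and Crot). Of the higher genes, only Slc25a20 belongs to the carnitine shuttle itself, so the split depends on which genes were listed.

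Of the 8 membrane partners of uptake that reached 300, 0 were 3-fold lower or higher, beside 2.68% and 0.215% over all genes. The median log2 ratio of the 9 measured was -0.37. Several are proteins of caveolae, the membrane pits abundant in fat cells and endothelium. Caveolin-1 (Cav1) had 3014 on the GW9662 array and 5233 on the control array, Cav2 had 2789 and 4844, Cavin1 had 864 and 1982, and Ehd2 had 449 and 1174, 2.62-fold lower. Got2, a mitochondrial aminotransferase also found at the cell surface, had 2575 and 2432. Markers of fat cells and endothelium were also lower, and their part in these values was not tested.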
